A study of Homo sapiens with 31 samples.

Results

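A back-splice joins the end of an exon to the start of the same or an upstream exon, and reads across such a junction count a circular RNA (circRNA). The circRNAs described here come from genes of chromatin remodellers and histone or DNA modifiers. They were taken by gene symbol, as every circRNA whose named transcript belongs to a gene with the prefix KDM, KMT, SETD, HDAC, CHD, ARID, BRD, BAZ, KAT, PHF, SMARC, DNMT or TET, with SMARCA5 left out. The choice of these genes was made with earlier results of these data known. The deposited list held 1091 such circRNAs from 101 genes, of 55371 circRNAs (1.97%) from 7766 genes, and they carried 25922 of 1029205 back-splice reads (2.52%).

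Total RNA of H9, an established human embryonic stem (ES) cell line, was depleted of ribosomal RNA and sequenced in 15 libraries. Groups of 3 replicate cultures were undifferentiated cells at day 0, cultures differentiated towards retina without treatment at day 45 and at day 90, and cultures at the same days given the growth factor IGF-1, at 5 ng/ml to day 37 and 10 ng/ml after it. Every group is the same cell line, RNA came from whole cultures with no cell type selected, and fewer cells of a type and less RNA per cell cannot be told apart. A further 16 amplicon libraries were not used here.

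The products of these genes set how DNA is packed and marked. Histone methyltransferases (KMT, SETD) and acetyltransferases (KAT) add groups to histone tails, demethylases (KDM) and deacetylases (HDAC) remove them, and bromodomain and PHD finger proteins (BRD, BAZ, PHF) bind the marks. CHD proteins and the ATPases among SMARC proteins use ATP to move or evict nucleosomes. ARID1A and ARID1B are DNA-binding subunits of the SMARC-containing BAF complex, DNMT enzymes methylate cytosine and TET enzymes oxidise the methylated base. ES cells hold a BAF complex of their own composition, and neural differentiation exchanges BAF subunits and rewrites histone marks. The prefix rule also takes in proteins with other substrates: SETD3, which leads the list, methylates a histidine of actin. A count of circRNA reads is not a measure of the mRNA or protein of its gene.

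CircRNAs are named here by gene and by the exons that give the splice donor and the acceptor, so that SETD3 E6-E2 is a circle from exon 2 to exon 6 of its named transcript. The junctions of the leading circRNAs are printed because each is the only stretch by which a read identifies the circle. Lower case marks the last 20 bases of the donor exon and capitals the first 20 bases of the acceptor exon, 5′ to 3′ on the strand of the gene, read from the GRCh37 genome, whose coordinates are those of hg19.
SETD3 E6-E2, chr14:99924616-99932150, minus strand: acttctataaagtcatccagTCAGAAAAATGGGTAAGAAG
KDM1A E4-E2, chr1:23356962-23377013, plus strand: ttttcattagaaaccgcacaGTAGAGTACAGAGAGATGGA
KDM4C E8-E6, chr9:6880012-6893232, plus strand: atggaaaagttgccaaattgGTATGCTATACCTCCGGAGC
KDM4B E9-E6, chr19:5047487-5082515, plus strand: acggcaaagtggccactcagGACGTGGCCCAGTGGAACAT
TET1 E4-E4, chr10:70404455-70406762, plus strand: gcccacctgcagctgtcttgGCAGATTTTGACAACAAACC
TET2 E3-E3, chr4:106155054-106158508, plus strand: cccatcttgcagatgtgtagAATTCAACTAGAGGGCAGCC
CHD2 E5-E3, chr15:93467551-93472321, plus strand: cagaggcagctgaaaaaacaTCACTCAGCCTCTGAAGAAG
ARID1A E4-E2, chr1:27056142-27059283, plus strand: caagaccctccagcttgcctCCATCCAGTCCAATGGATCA
SMARCC1 E7-E3, chr3:47762156-47787483, minus strand: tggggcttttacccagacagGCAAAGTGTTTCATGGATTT

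The ends of these circles are exons of the genes named, and all but SETD3 E6-E2 lie within the coding sequence of their named transcript. Other transcripts of a gene can place the start codon elsewhere and were not checked. SETD3 E6-E2 holds 5 exons and 683 spliced bases and includes the start codon. TET1 E4-E4 and TET2 E3-E3 are single exons of 2308 and 3455 bases joined to themselves, while the other 6 hold 3 to 5 exons and 292 to 783 bases.

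Several circRNAs of a gene shared an end, and the junctions of KMT2C and KDM1A are set side by side to show it. The acceptor side of the KMT2C junctions changes while the donor stays at exon 6, and KDM1A uses donors of exons 4 and 9 with acceptors of exons 2 and 4.
KMT2C E6-E4, chr7:152007051-152012423, minus strand: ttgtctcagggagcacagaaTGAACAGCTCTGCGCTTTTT
KMT2C E6-E3, chr7:152007051-152027824, minus strand: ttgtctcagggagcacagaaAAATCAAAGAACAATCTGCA
KMT2C E6-E2, chr7:152007051-152055760, minus strand: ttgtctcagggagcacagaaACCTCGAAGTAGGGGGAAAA
KDM1A E9-E2, chr1:23356962-23385660, plus strand: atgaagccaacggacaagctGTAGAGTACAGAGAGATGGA
KDM1A E9-E4, chr1:23376880-23385660, plus strand: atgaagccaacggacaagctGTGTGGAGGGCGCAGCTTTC

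Libraries held 14992 to 108946 back-splice reads among 105685200 to 155002132 sequenced reads, and levels are given as reads per 1000000 sequenced reads (RPM), as mean ± SD of 3 cultures. For day 90 replicates 1 and 2 the read numbers could not be told apart and the mean of both was used. The RNA integrity number, a score of RNA degradation, lay at 9.8 to 10 at day 0, at 7.6 to 9.1 at day 45 and at 7.1 to 8.9 at day 90, so RNA quality and day cannot be told apart, and its part in the results was not tested. Marker lists were read only as summed circRNA reads of a group. Reads were found for 5 of 12 pluripotency genes, with 25 reads at day 0 and 2 to 6 in later groups, and for 7 of 12 neuron genes, with 4 at day 0 and 73 to 101 later. For 4 of 17 retina genes there were 0 reads at day 0 and 7 to 19 later, and for 6 of 10 retinal pigment epithelium genes 3 and then 11 to 32. The lists of glia (1 of 8 genes), mesenchyme (6 of 10) and muscle (5 of 8) gave at most 2, 9 and 25 reads in a group. Defining markers POU5F1, NANOG, SOX2, PAX6, RAX, CRX and NRL had no circRNA read in any library, and the part of cell type in the results was not tested.

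The summed level of chromatin-gene circRNAs was higher in every differentiated library than in any day 0 library. The 3 undifferentiated libraries lay between 2.66 and 2.87 RPM, with a mean of 2.77 ± 0.107. Untreated cultures reached 18.4 ± 5.14 RPM at day 45 (15.1 to 24.4, replicate 1 highest) and 12.1 ± 3.76 RPM at day 90 (7.79 to 14.9, replicate 1 lowest). Cultures with IGF-1 reached 15.9 ± 1.86 and 14.9 ± 2.66 RPM at these days. Each untreated day 45 library lay above each untreated day 90 library, with no test of that order. It rests on the mean read number used for day 90 replicates 1 and 2. If replicate 2 had the lower read number, 116522226, the order would not hold. The ranges of the IGF-1 groups overlapped those of both untreated groups. The ratio to day 0 was 6.65 at day 45 and 4.35 at day 90, beside 6.33 and 4.11 for all circRNAs together. As a share of all back-splice reads the chromatin genes held 2.24 to 2.50% at day 0, 2.44 to 2.49% at day 45 and 2.45 to 2.52% at day 90, and the highest library of all reached 2.65%.

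**Figure D1:**
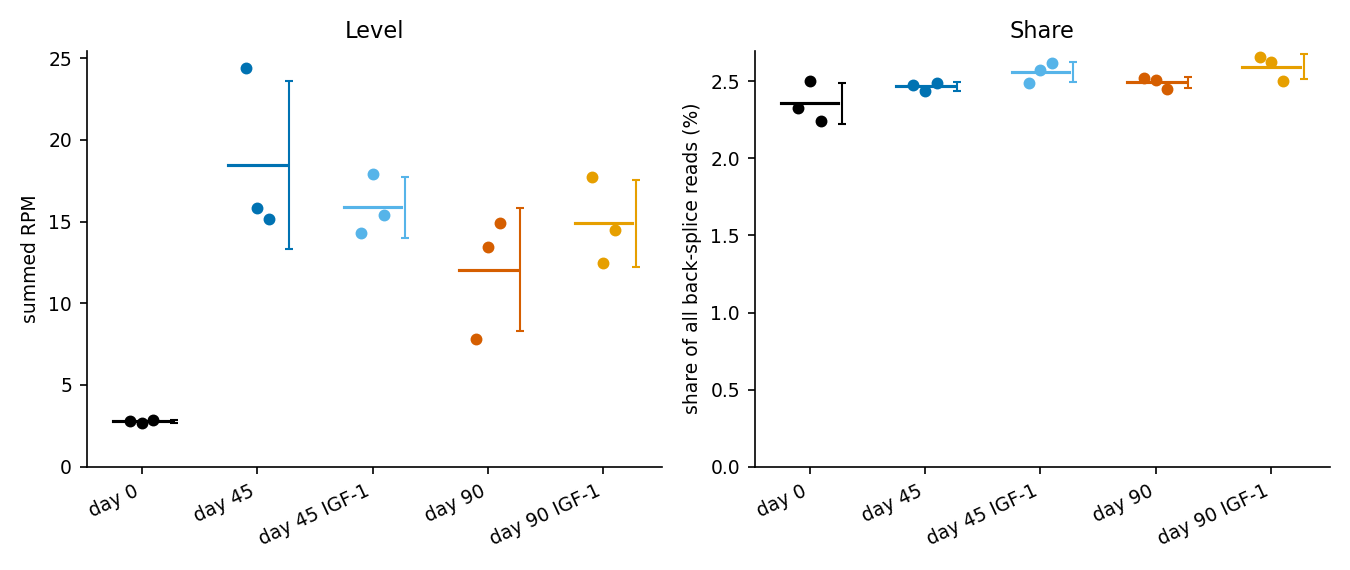
Left, the summed RPM of the 1091 chromatin-gene circRNAs in each library, and right, their share of all back-splice reads in percent. Points are cultures, horizontal lines group means and vertical bars 1 SD of 3 cultures. The level in the 3 day 0 libraries lies under 3 RPM and that in all others above 7 RPM, while the share stays between 2.24 and 2.65% throughout.

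More circRNAs of these genes were found after day 0, as of all genes. At day 0 a library held reads of 134 to 146 of the 1091, and at day 45 of 371 to 396. Of all 55371 circRNAs, day 0 libraries held 5730 to 6813 and untreated day 45 libraries 17073 to 19117. Over the groups, 815 of the 1091 were found only after day 0, 242 both at day 0 and later, and 34 only at day 0. These 34 had at most 3 reads each. Among all 55371 circRNAs, 42940 were found only after day 0, 10554 at both and 1877 only at day 0. Reads were found in all 15 libraries for 35 of the 1091, beside 1298 of all 55371. A single read was all that 357 of the 1091 rested on (32.7%, beside 36.1% of all circRNAs).

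Tests were possible for 282 of the 1091, those with at least 10 reads over the 15 libraries (25.8%, beside 22.6% of all circRNAs), and the other 809 held 7.84% of the reads. Of the 282, 130 were higher and 0 lower at day 45 than at day 0 by edgeR's quasi-likelihood test at an adjusted p under 0.05, which is 46.1%, where 40.9% of all 12498 circRNAs tested were called higher. The fitted log2 change had a median of 2.72 for the 282 and of 2.87 for all. Most of these circRNAs were barely seen at day 0: 100 had no read there, and 237 had at most 3 reads in each day 0 library, so that their fitted change depends on a prior count. With groups of fewer than 3 reads set to 3 reads, the median log2 change was 1.46 for the 282 and 1.26 for all. Every day 45 library lay above every day 0 library for 149 of the 282 (52.8%), where 46.2% of all circRNAs tested did so.

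**Figure D2:**
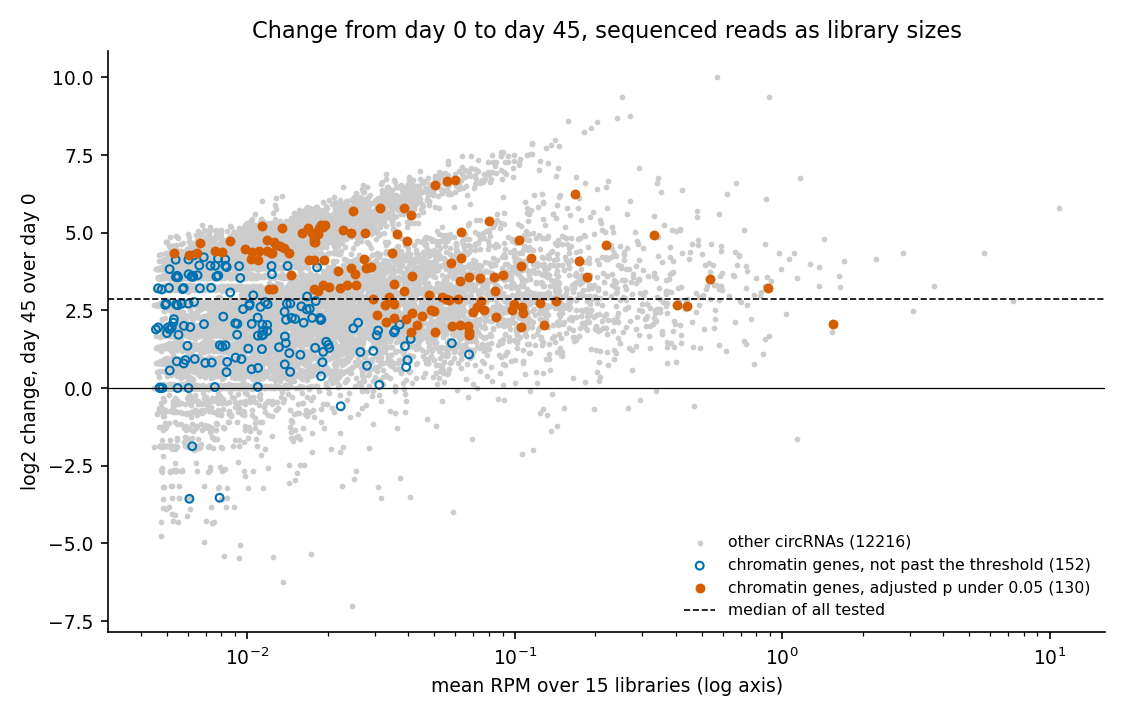
The fitted log2 change from day 0 to day 45 (y axis) against mean RPM over 15 libraries (x axis, log scale), 1 point per circRNA tested. Filled points are the 130 chromatin-gene circRNAs past the threshold, open points the 152 that are not, grey points the 12216 others, and the dashed line is the median of all tested. The filled points lie above 0 and spread on both sides of the dashed line.

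Counting against sequenced reads includes the rise of circRNAs as a whole. When libraries were scaled by TMM on their back-splice totals, the median log2 change of all circRNAs was 1.60 in place of 2.87, that of the 282 was 1.35, and 16 of the 282 were called higher (5.67%, where 6.27% of all were). With DESeq2's size factors 6 were higher (2.13%, where 2.57% of all were) and 1, BAZ1A E24-E23, was lower (where 1.51% of all were). Without the filter on low counts 79 of 1091 were higher (7.24%, where 5.71% of all were).

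Counts by family are read against the 40.9% of all circRNAs called higher at day 45. Counts summed by gene can differ from these and are given further below. Among histone methyltransferase genes, 25 of 46 circRNAs tested were higher (54.3%) and 0 lower. SETD3 E6-E2 was the most abundant of all chromatin-gene circRNAs, with 3140 reads, 12.1% of their sum, and ranked 11 of all 55371. Its reads were 62, 78 and 81 at day 0, 319, 296 and 249 at day 45, and 125, 173 and 259 at day 90. Every later culture lay above the day 0 cultures, and its level was 0.541 ± 0.041 RPM at day 0, 2.24 ± 0.597 at day 45 and 1.28 ± 0.395 at day 90. The log2 change to day 45 was 2.05 ± 0.40 (SE, edgeR adjusted p = 7.27e-06). This was below the fitted median of 2.87 for all circRNAs, many of which had no read at day 0. It was above the median of 1.79 for the 1466 circRNAs with more than 3 reads in a day 0 library. Scaled by TMM the change of SETD3 E6-E2 was 0.25 (edgeR adjusted p = 0.564) and by DESeq2's size factors −0.34, so its direction depends on the scaling.

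KMT2C encodes a methyltransferase that marks enhancers. KMT2C E6-E4 had 2, 2 and 3 reads in the day 0 libraries against 93, 54 and 63 at day 45. The ratio of summed RPM was 30.9, with an exact 95% counting interval of 14.7 to 77.7 (edgeR adjusted p = 3.79e-15). It remained past the threshold scaled by TMM (edgeR adjusted p = 3.42e-08). KMT2C E6-E3 had 1 read at day 0 and 5, 0 and 2 at day 45 (edgeR adjusted p = 0.134). KMT2C E6-E2, the circle with the same donor and an acceptor at exon 2, had no read at day 0 and 18, 10 and 8 at day 45, at least 12.4-fold higher against 3 reads for the day 0 group. KMT2E E10-E6, from a gene of the same family, had 0, 1 and 1 reads at day 0 and 25, 19 and 17 at day 45, a ratio of 31.4 (8.33 to 265).

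Among histone demethylase genes, 15 of 34 circRNAs tested were higher at day 45 (44.1%, near the 40.9% of all) and 0 lower. KDM1A (LSD1) removes methyl groups from histone H3 lysines in the CoREST complex. KDM1A E4-E2 had 19, 18 and 18 reads at day 0, 193, 170 and 127 at day 45, and 74, 124 and 183 at day 90. It was higher in every later culture, and its level went from 0.136 ± 0.0143 RPM to 1.28 ± 0.44 and then 0.874 ± 0.331 RPM. The log2 change to day 45 was 3.23 ± 0.45 (edgeR adjusted p = 3.94e-11), and 1.43 scaled by TMM (edgeR adjusted p = 0.000327). The latter is below the median of 1.60 that all circRNAs had under that scaling. That median includes many circRNAs with no read at day 0, so it is no measure of circRNAs with like coverage. Of the other KDM1A circles, E9-E2 changed by 2.81 ± 0.61 (edgeR adjusted p = 4.65e-05) and E9-E4 by 2.87 ± 0.75 (edgeR adjusted p = 0.000968).

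KDM4B and KDM4C are jumonji demethylases of histone H3. KDM4C E8-E6 had 11, 8 and 20 reads at day 0 and 84, 75 and 73 at day 45, a log2 change of 2.63 ± 0.46 (edgeR adjusted p = 2.8e-07) that did not pass the threshold scaled by TMM (0.87, edgeR adjusted p = 0.122). KDM4B E9-E6 had 1 read in the 3 day 0 libraries and 34, 39 and 27 at day 45. The ratio was 103, with a counting interval of 18.1 to 4106 that rests on the 1 read at day 0 (edgeR adjusted p = 1.01e-12). KDM4B E6-E4 was at 0 in every day 0 library and had 18, 9 and 8 reads at day 45, at least 12-fold higher against 3 reads.

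Among CHD remodeller genes, 26 of 47 circRNAs tested were higher at day 45 (55.3%, beside 40.9% of all) and 0 lower. CHD7 is an ATP-dependent remodeller of neural crest and eye development, mutated in CHARGE syndrome. CHD7 E6-E4 had 8, 12 and 4 reads at day 0, 86, 105 and 73 at day 45, and 58, 80 and 106 at day 90. Both later groups lay above day 0 and overlapped each other. The log2 change to day 45 was 3.50 ± 0.48 (edgeR adjusted p = 4.44e-11), and scaled by TMM it was 1.73 (edgeR adjusted p = 0.000205). CHD7 E2-E2, a single exon with the start codon, had 3, 0 and 3 reads at day 0 and 52, 34 and 64 at day 45, a ratio of 25.7 (11.5 to 71.2).

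CHD2, a remodeller linked to epilepsy, gave CHD2 E5-E3 with 0, 4 and 5 reads at day 0 and 42, 41 and 22 at day 45. Its log2 change was 3.59 ± 0.58 (edgeR adjusted p = 2.45e-08), and 1.81 scaled by TMM (edgeR adjusted p = 0.0113). CHD2 E31-E29 changed by 2.73 ± 0.60 (edgeR adjusted p = 6.1e-05) and CHD1L E6-E2, of a remodeller that acts in DNA repair, by 2.69 ± 0.64 (edgeR adjusted p = 0.000254). CHD genes held 12.9 to 13.8% of the chromatin-gene reads in day 0 libraries and 16.4 to 19.4% in day 45 libraries.

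Among genes of the SMARC and ARID families, 37 of 82 circRNAs tested were higher at day 45 (45.1%, near the 40.9% of all) and 0 lower. SMARCC1 alone gave 49 of the 82, so this share mostly describes 1 gene. Summed by gene, 11 of 13 were higher, where 61.9% of all genes were. ARID1A E4-E2 had 0, 1 and 2 reads at day 0, 14, 17 and 29 at day 45 and 12, 36 and 28 at day 90. The ratio to day 45 was 20.6 (6.71 to 103, edgeR adjusted p = 3.07e-07), and it was the only circRNA of these families past the threshold scaled by TMM (edgeR adjusted p = 0.00997). SMARCC1 (BAF155), a core scaffold of BAF, gave its most abundant circle E7-E3 with 0, 3 and 8 reads at day 0 and 35, 14 and 10 at day 45 (edgeR adjusted p = 0.000282).

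TET1 and TET2 gave the leading circRNAs of the DNA methylation genes, each from a single exon. TET1 E4-E4 had 14, 10 and 6 reads at day 0 and 52, 52 and 88 at day 45, with no overlap, and a log2 change of 2.68 ± 0.47 (edgeR adjusted p = 3.96e-07). TET2 E3-E3 had 2, 2 and 0 reads at day 0, 18, 26 and 29 at day 45 and 16, 57 and 32 at day 90. The ratio was 18.8 (7.03 to 70.8) at day 45 and 24.8 (9.42 to 92.9) at day 90. Of the 14 circRNAs tested from DNA methylation genes, 3 were higher at day 45 (21.4%, below the 40.9% of all) and 0 lower. Summed by gene, 3 of 5 were higher, where 61.9% of all genes were.

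Acetyltransferases and deacetylases gave few reads. KAT6A and KAT6B are MYST acetyltransferases, and 5 of 7 circRNAs tested from acetyltransferase genes were higher at day 45 (71.4%, beside 40.9% of all). KAT6A E8-E3 had 4, 0 and 0 reads at day 0 and 18, 16 and 16 at day 45, a log2 change of 3.57 ± 0.73 (edgeR adjusted p = 1.46e-05). The 10 circRNAs of KAT6B had a summed level of 0.0345 ± 0.0357 RPM at day 0, against 0.325 ± 0.102 at day 45. Of 6 tested from deacetylase genes, 4 were higher (66.7%). The 6 circRNAs of HDAC5 summed to 0, 0 and 2 reads at day 0 and 16, 14 and 5 at day 45 (edgeR adjusted p = 7.86e-05 for the gene). HDAC11 E8-E6 had no read at day 0 and reads in some later cultures only, with 0, 11 and 0 at day 45 and 5, 0 and 19 at day 90.

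Bromodomain, BAZ and PHF proteins read histone marks. Of 21 circRNAs tested from bromodomain and BAZ genes 7 were higher (33.3%), and of 25 from PHF genes 8 were higher (32%). Both shares are below the 40.9% of all, with 0 lower in both and 0 past the threshold scaled by TMM. Summed by gene, 3 of 6 bromodomain and BAZ genes and 8 of 10 PHF genes were higher, where 61.9% of all genes were. BAZ2B E26-E25 had 0, 5 and 0 reads at day 0 and 15, 10 and 19 at day 45, a log2 change of 3.11 ± 0.71 (edgeR adjusted p = 0.000123). The 36 circRNAs of BAZ1A (ACF1), a partner of the ISWI remodeller, had a summed level of 0.0614 ± 0.0174 RPM at day 0, against 0.261 ± 0.0285 at day 45. PHF20, a reader in the NSL acetyltransferase complex, gave 0.122 ± 0.0563 and 0.559 ± 0.274 RPM in the same groups. PHF20 E6-E5 had 4, 3 and 0 reads at day 0, 23, 10 and 17 at day 45 and 3, 4 and 8 at day 90. Its log2 change to day 45 was 2.85 ± 0.69 (edgeR adjusted p = 0.000365) and that to day 90 0.96 (edgeR adjusted p = 0.334). PHF genes held 8.46 to 12.9% of the chromatin-gene reads in day 0 libraries and 4.98 to 6.99% in day 45 libraries.

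**Figure D3:**
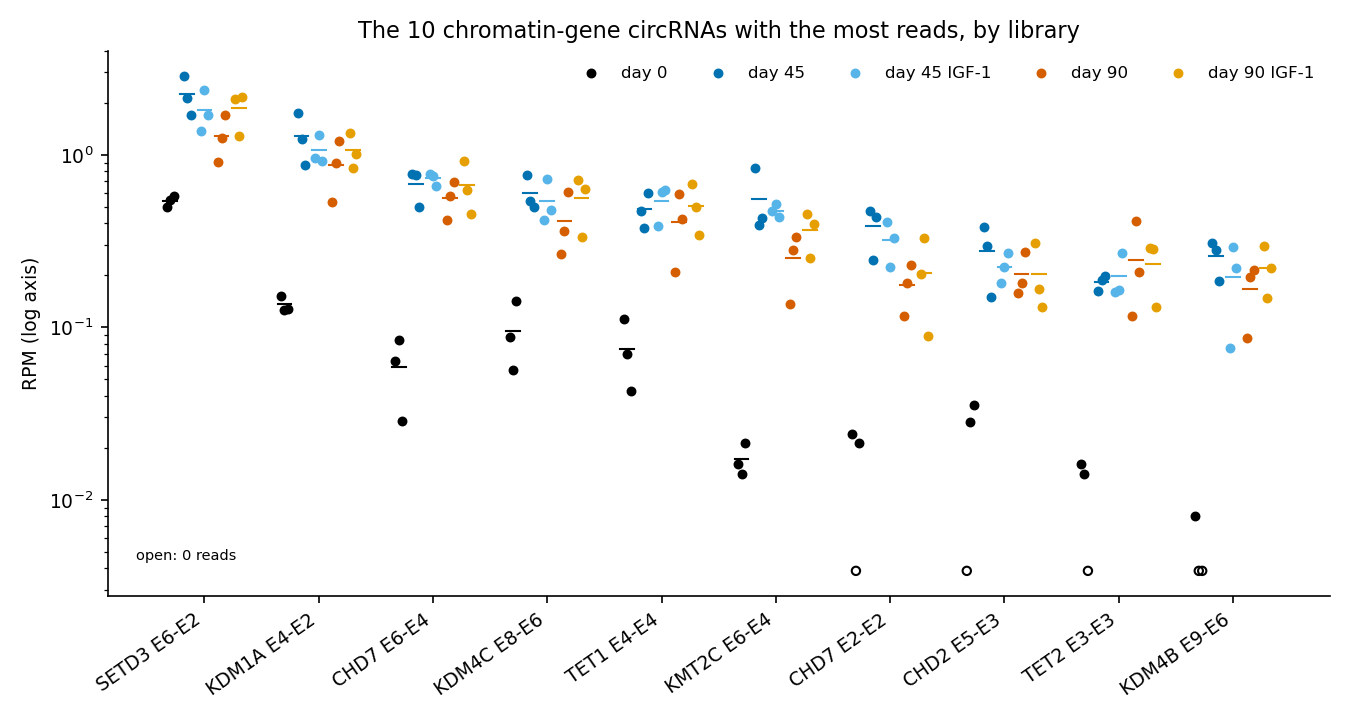
RPM (log axis) of the 10 chromatin-gene circRNAs with the most reads, in each of 15 libraries coloured by group. Points are cultures, lines are means of groups in which every library had a read, and open circles at the bottom are day 0 libraries with 0 reads. The day 0 points lie below those of the untreated day 45 and day 90 libraries for each of the 10.

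Those circRNAs best covered before differentiation give the changes that depend least on the prior count. Of the 282, 45 had more than 3 reads in at least 1 day 0 library. Their log2 change to day 45 ran from −0.59 to 3.59 with a median of 2.03, beside 1.79 for the 1466 such circRNAs of all genes, and 30 of the 45 were called higher (66.7%, where 56.3% of the 1466 were). Of the 15 not called, 6 came from SMARCC1. SMARCC1 E26-E22 had 2, 4 and 2 reads at day 0 and 2, 1 and 2 at day 45, a log2 change of −0.59 ± 1.00 (edgeR adjusted p = 0.618). SMARCC1 E24-E16 had 9 reads in both groups. These 2 were chosen after their values were seen.

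At day 90, 70 of the 282 were higher than at day 0 and 0 lower (24.8%, where 21.7% of all were called higher). This comparison shares its day 0 libraries with that of day 45. The fitted median log2 change was 2.13, beside 2.33 for all circRNAs, and 0.80 beside 0.66 with groups of fewer than 3 reads set to 3 reads. SETD3 E6-E2 changed by 1.24 ± 0.40 (edgeR adjusted p = 0.0133), KDM1A E4-E2 by 2.68 ± 0.44 (edgeR adjusted p = 7.96e-08) and CHD7 E6-E4 by 3.24 ± 0.48 (edgeR adjusted p = 2.55e-09). Scaled by TMM, 17 were higher (6.03%, where 5.9% of all were), and SETD3 E6-E2 was then at −0.01 (edgeR adjusted p = 0.999). With DESeq2's size factors 9 were higher (3.19%, where 2.88% of all were). The count of 70 was 41 without day 90 replicate 3 and 42 without day 0 replicate 2, and without the filter on low counts it was 43 of 1091 (3.94%, where 2.97% of all were).

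The circRNAs called higher with TMM, a share near that of all circRNAs at both days, numbered 20 over day 45 and day 90. They came from 12 genes, which were the demethylases KDM1A and KDM4B, the methyltransferase family members KMT2C and KMT2E, KAT6A, HDAC11, the remodellers CHD2, CHD7 and CHD9, ARID1A, TET1 and TET2.

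Between day 45 and day 90 none of the 282 passed the threshold with edgeR or with DESeq2's Wald test (10 of all circRNAs did with edgeR, 0.08%), and 23 had an unadjusted edgeR p under 0.05, 16 with DESeq2. The fitted median was −0.64, beside −0.61 for all circRNAs. Without day 45 replicate 1 the 23 became 8 and the median −0.32, and without day 90 replicate 1 the 23 became 15. SETD3 E6-E2 changed by −0.80 ± 0.39 (edgeR adjusted p = 0.483), KDM1A E4-E2 by −0.54 ± 0.39 (edgeR adjusted p = 0.696) and CHD7 E6-E4 by −0.27 ± 0.40 (edgeR adjusted p = 0.875). PHF20 E6-E5 had the smallest adjusted p, 0.326 with edgeR, at a log2 change of −1.89 ± 0.62.

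Cultures with IGF-1 were compared with untreated cultures of the same day. At day 45 none of the 282 passed the threshold with edgeR or with DESeq2 (2 of all did with edgeR, 0.016%), and 12 had an unadjusted edgeR p under 0.05, 4 with DESeq2. At day 90 none did either (1 of all did with edgeR, 0.008%), with 9 at an unadjusted edgeR p under 0.05 and 3 with DESeq2. Without day 45 replicate 1 the 12 became 7, and the 9 became 17 without day 90 replicate 2 and 6 without day 90 IGF-1 replicate 3. The log2 change of SETD3 E6-E2 with IGF-1 was −0.30 ± 0.38 at day 45 and 0.53 ± 0.39 at day 90 (edgeR adjusted p = 1 for both), and that of KDM1A E4-E2 −0.27 ± 0.39 and 0.28 ± 0.39 (edgeR adjusted p = 1 for both). For the difference between the IGF-1 effects at the 2 days the smallest edgeR adjusted p was 0.429. A threshold not passed does not show that levels were equal.

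Summed over circRNAs, 76 of the 101 genes had at least 10 reads. Of these 76, 55 were higher at day 45 and 0 lower (72.4%, where 61.9% of all 4616 genes tested were called higher). At day 90, 41 were higher (53.9%, where 43.4% of all were). By family, those higher at day 45 were 9 of 13 demethylase, 7 of 10 methyltransferase, 4 of 4 acetyltransferase and 5 of 7 deacetylase genes. The rest were 5 of 8 CHD, 11 of 13 SMARC and ARID, 3 of 6 bromodomain and BAZ, 8 of 10 PHF and 3 of 5 DNA methylation genes. The log2 change of the gene sums to day 45 was 3.67 ± 0.44 for CHD7 (edgeR adjusted p = 2.75e-15), 3.24 ± 0.41 for KDM1A (edgeR adjusted p = 1.86e-13), 2.15 ± 0.41 for TET1 (edgeR adjusted p = 1.25e-06) and 2.05 ± 0.38 for SETD3 (edgeR adjusted p = 4.94e-07). Scaled by TMM, 18 of the 76 were higher at day 45 (23.7%, where 17.9% of all genes were). At day 90, 16 were higher (21.1%, where 16.4% of all were) and 1 lower (where 2.6% of all were). The lower gene was PHF3, which binds RNA polymerase II, with 14, 6 and 7 reads at day 0, 14, 14 and 18 at day 45, and 5, 4 and 10 at day 90. Its log2 change to day 90 was −0.61 ± 0.62 against sequenced reads (edgeR adjusted p = 0.412) and −1.82 scaled by TMM (edgeR adjusted p = 0.00601). With DESeq2's size factors 6 genes were higher and 1 lower at day 45, where 8.49% and 4.03% of all genes were, and 9 higher and 1 lower at day 90, where 8.56% and 4.29% of all were. PHF3 was the lower gene both times.

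Genes differed in how their reads were spread over circles. SETD3 had 3154 reads on 6 circRNAs, 99.6% of them on E6-E2, and KDM1A had 2346 reads on 9 circRNAs, 76.1% on E4-E2. SMARCC1 had 2639 reads on 106 circRNAs with 7.43% on the leading circle, ranking 5 among all genes by number of circRNAs, and SETD2, a methyltransferase of transcribed gene bodies, had 65. Over the 37 chromatin genes with at least 100 reads the median was 16 circRNAs and 41.9% of reads on the leading circle, beside 12 circRNAs and 53.1% over the 1715 such genes of the whole list, 7.43% in SMARCC1 being the lowest of both. These shares are a description and were not tested.

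**Figure D4:**
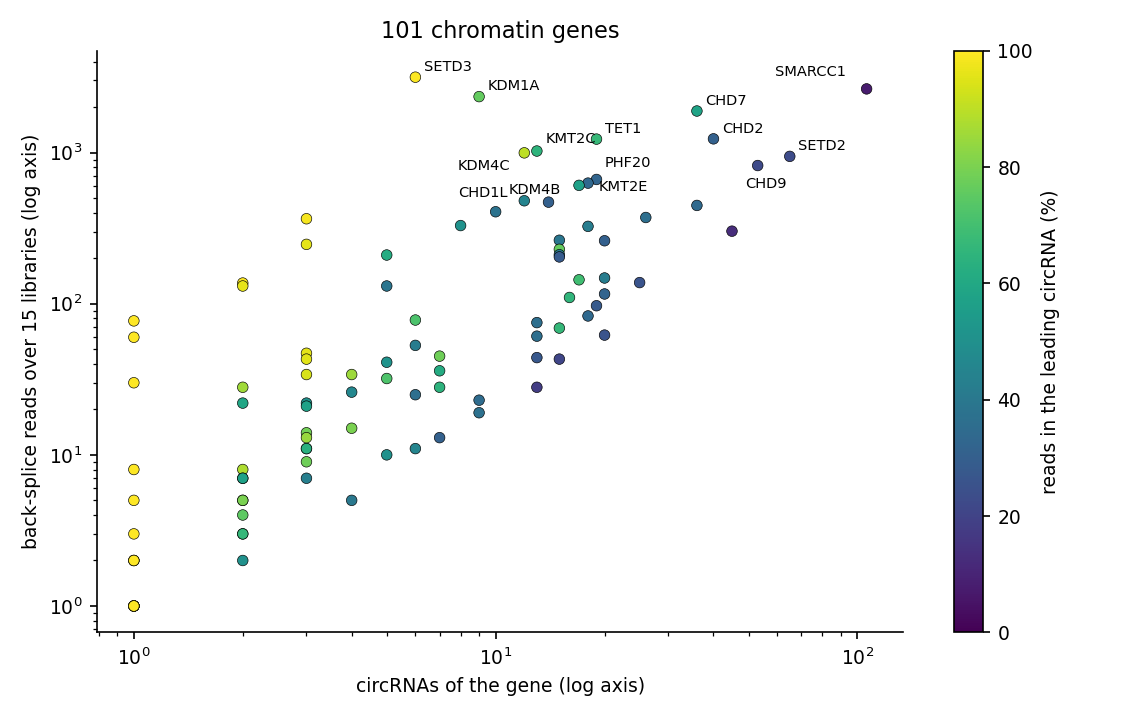
Each point is 1 of the 101 chromatin genes, placed by its number of circRNAs (x axis, log scale) and its back-splice reads over 15 libraries (y axis, log scale) and coloured by the percent of its reads on the leading circRNA. SETD3 (6 circRNAs, 3154 reads) and SMARCC1 (106 circRNAs, 2639 reads) lie at opposite ends of the upper edge.

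The circles of SMARCC1 began and ended at most of its exons. Its named transcripts have 28 exons each, and 24 exons served as donor and 24 as acceptor, all between exon 2 and exon 26, with 106 different pairs. Exon 16 was the acceptor of 10 circRNAs with 553 reads (21.0%), and exon 3 of 10 with 386 reads (14.6%). Donors were more even, with exon 7 at 11.7% of reads and exon 26 at 11%. The summed level was 0.379 ± 0.0558 RPM at day 0, 2.02 ± 0.96 at day 45 and 1.13 ± 0.335 at day 90, a log2 change to day 45 of 2.41 ± 0.39 (edgeR adjusted p = 7.24e-09).

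**Figure D5:**
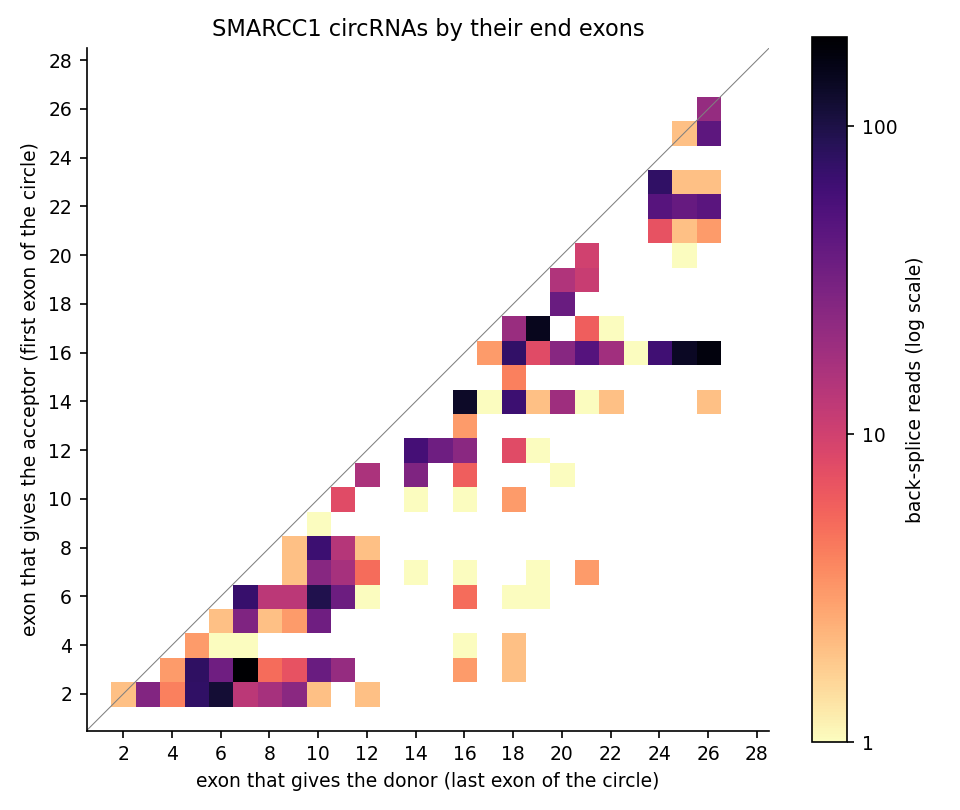
Each square is a SMARCC1 circRNA, at the exon that gives its donor (x axis) and the exon that gives its acceptor (y axis), coloured by its back-splice reads over 15 libraries on a log scale. The diagonal line marks circles of a single exon. Rows at exon 16 and exon 3 hold the most reads, 553 and 386.

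Whether the circles of a gene changed against each other between day 0 and the untreated later cultures was tested in the 39 genes with at least 2 circRNAs tested. None passed the threshold in edgeR's gene-level usage test (15 of all 2163 genes did, 0.693%), and 4 had an unadjusted p under 0.05 (10.3%, beside 9.52% of all). These 4 were KDM4C, with an edgeR adjusted p of 0.290, SMARCC1 with 0.419, BAZ1A with 0.449 and KDM4B with 0.463. KDM4C E12-E9 had 2, 1 and 1 reads at day 0 and 0 in the 3 day 45 libraries, while KDM4C E8-E6 went from 39 to 232 reads. KDM4C E12-E9 was chosen after its values were seen.

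In structure the chromatin-gene circRNAs had more spliced sequence and started less often at exon 2 than circRNAs as a whole, as a description with no test. The median was 4 exons for both, and 592 spliced bases against 510, and among those with at least 10 reads 3 exons for both and 486 bases against 436. Exon 2 was the acceptor of 13.3% against 21.6%, and of 16% against 28.3% of those with at least 10 reads. Circles of a single exon made up 5.61% against 4.61%, and 91.3% against 87.9% lay wholly within the coding sequence of their named transcript. All but 2 of the 1091 were flanked by AG before the acceptor exon and GT after the donor exon, and those 2 had GC in place of GT. The 25 bases at each end of 26 circRNAs checked, the leading ones among them, occurred once in the GRCh37 genome, where copies with mismatches were not searched.

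Chromatin genes outside the prefixes were also described. Of 83 further genes listed for roles in chromatin, such as Polycomb, coregulator and histone chaperone genes, 65 had a circRNA and 55 could be tested. Of the 55, 41 were higher at day 45 (74.5%, where 61.9% of all genes were) and 34 at day 90 (61.8%, where 43.4% were), with 0 lower. The 5 with the most reads were RERE, ASXL1, RSF1, ASH1L and NCOA2. RERE, a nuclear receptor coregulator, had 8162 reads, more than any gene of the prefix list, and went from 0.268 ± 0.0835 RPM at day 0 to 6.65 ± 2.82 at day 45 (log2 change 4.63 ± 0.42, edgeR adjusted p = 2.77e-25). ASXL1, a cofactor of the Polycomb deubiquitinase, gave a single circRNA with 2513 reads and a log2 change of 3.99 ± 0.43 (edgeR adjusted p = 2.6e-18). The changes of the other 3 were 2.79 ± 0.42 for RSF1 (edgeR adjusted p = 5.55e-10), 2.28 ± 0.41 for ASH1L (edgeR adjusted p = 1.47e-07) and 4.41 ± 0.50 for NCOA2 (edgeR adjusted p = 1.4e-16).

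Some circles within these loci were named after transcripts that the annotation used here does not hold, and the rule left them out. They were 261 structures with 4051 reads in 34 loci, of which 66 could be tested. Of the 66, 20 were higher at day 45 (30.3%, where 40.9% of all circRNAs were) and 12 at day 90 (18.2%, where 21.7% were). The largest, PHF21A E5-E2, had 12, 5 and 12 reads at day 0 among 774 in all and changed by 3.10 ± 0.48 (edgeR adjusted p = 3.87e-09).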

How the data were processed

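Back-splice junctions were found by the authors with PTESFinder, run per library on hg19 with GENCODE 19 models. The values the authors deposited are raw counts of back-splice reads, given separately for the 15 libraries and neither normalised nor pooled. Library letters a, b and c were read as replicates 1, 2 and 3. The members and lists were chosen with earlier results of these data known.

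Genes were assigned by named transcript with GENCODE 44 on GRCh37. Counts were tested in a single fit of the 15 libraries with edgeR 4.0.16 (glmQLFit, glmQLFTest, R 4.3.3), with sequenced reads from Additional file 1 as library sizes, no TMM factors and at least 10 summed counts, adjusted by Benjamini-Hochberg over all circRNAs or genes at 0.05. The SE of a log2 change was calculated back from the test, as the size of the change divided by the square root of its F statistic. Usage was tested with diffSpliceDGE. Alternatives were TMM, DESeq2 1.42.0 size factors and its Wald test, other filters, a replicate block, Q30 terms, other read numbers and each replicate left out. Named were the gene with the most reads in each of 9 families, the 10 circRNAs with the most reads, the 10 with the largest change to day 45 among those called with more than 3 counts in a day 0 library and higher in all 3 replicate numbers, and the 5 other chromatin genes with the most reads. Others were chosen after their values were seen. Replicates are separate cultures of 1 line. Intervals cover counting error only, since they use counts summed over the 3 cultures and leave out the spread between cultures. Reads have no molecular identifiers, so duplicate reads were not told apart. The tests were run on simulated counts that held no rise of circRNAs as a whole, so that setting was not covered. No result rests on this check. Canonical junctions, gene expression and amplicon data were not used here.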

Additional observations from a re-analysis of the deposited data

How the results depend on the processing

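Every chromatin-gene circRNA or gene called against day 0 was higher in each alternative run, except that scaling by back-splice reads gave the lower calls of BAZ1A E24-E23 (size factors) and PHF3. At day 45, 16 chromatin-gene circRNAs were called with TMM, 7 with DESeq2's size factors (6 higher, 1 lower) and 79 without a count filter, and 88 to 134 with each replicate left out. At day 90 the counts were 17, 9 and 43, and 41 to 80. Genes called were 18 with TMM and 7 with size factors at day 45, and 17 and 10 at day 90, and 44 to 55 and 32 to 44 with each replicate left out. SETD3 E6-E2 reversed with size factors (−0.34 at day 45, −0.51 at day 90) and with TMM at day 90 (−0.015). The cause was not tested. As a share of back-splice reads, the summed level was 1.05 times day 0 at day 45, 1.09 with IGF-1, and 1.06 and 1.10 at day 90. Circles with at least 10 counts had a median of 3 exons and 486 bases.

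The Wald test gave 100 and 64 circRNAs (35.5% and 22.7%, where 31.3% and 19.6% of all were higher). With at least 50 counts 88 of 98 and 64 were higher (89.8% and 65.3%, where 87.2% and 68.5% of all were). Chosen after seeing the data, group means of reads gave 129 and 71 (45.7% and 25.2%, where 40.7% and 22% of all were higher). Circles of other transcripts in the same loci raised the counts to 150 and 82. Of those circles 30.3% and 18.2% were higher, where 40.9% and 21.7% of all were. Of 30 same-numbered pairs of libraries 1 correlated above 0.1, day 45 replicate 1 with day 45 IGF-1 replicate 1 (0.102). Low counts limit such correlations, so they cannot show whether same-numbered cultures were paired. A replicate block gave 114 and 61 circRNAs (40.4% and 21.6%, where 35.1% and 19.4% of all were higher). It gave 52 and 41 genes (68.4% and 53.9%, where 58.7% and 41.1% of all were higher), and 0 in the comparisons of day 45 with day 90 and of IGF-1. Those comparisons and the usage test gave 0 calls in every alternative run. Of 32 calls of named circRNAs, 16 were lost with TMM, 24 with size factors and 1 without a filter. Leaving out a replicate lost the day 90 call of SETD3 E6-E2 (day 0 replicate 1 or day 90 replicate 3), KAT6A E8-E3 (day 0 replicate 2 or 3) and CHD1L E6-E2 (day 0 replicate 1). Low counts at day 0, at most 3 in each library for 237 of 282 circRNAs, limit the size of their changes.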
